A study of Mus musculus with 15 samples.

Results

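The 10 genes described here encode surface proteins by which thymocyte stages are told apart, namely *Cd4*, *Cd8a*, *Cd8b1*, *Cd44*, *Kit*, *Cd24a*, *Cd5*, *Cd69*, *Thy1* and *Cd2*. They were taken by name, with earlier results of these data known, and all 10 are among the 12545 genes of the deposited table. RNA-sequencing was performed on 15 mouse T cell leukemia lines, with 1 library per line. Of these lines, 7 were *E2a-/-* (their names start with SKO) and 8 were DKO, which were *E2a-/-* and in addition carried floxed *Lef1* alleles and the *LckCre* transgene (genotype E2a-/-LefF/F LckCre+). The question was which stage each line resembled in these mRNAs, and whether that differed more between the genotypes or among lines of 1 genotype.

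All 15 lines shared the loss of *E2a*, the FVB/NJ strain, an origin in the thymus of a moribund mouse and culture in OPTI-MEM, and none was treated. Cre is made under the *Lck* promoter, so *Lef1* is deleted in T lineage cells and not before that promoter is active. Each line was an established culture, and the labels do not say whether each came from a different mouse, so p-values measure the spread between lines. Normal thymocytes were not analysed here, and stages are therefore read from known marker combinations in mRNA, not from surface protein. In bulk RNA, fewer cells with a marker and less mRNA per cell cannot be told apart.

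The earliest thymocytes carry KIT and CD44 and neither CD4 nor CD8. They gain CD25, the product of *Il2ra*, at the DN2 stage, and lose KIT and CD44 while keeping CD25 at the DN3 stage. After a T cell receptor β chain is made, CD25 is lost and CD8 and then CD4 appear, and cells that bear both are selected on their receptor, which raises CD69 and CD5, before they mature into cells with CD4 or CD8 alone and little CD24.

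Levels are in CPM, the reads of a gene scaled to the same library total for every line. Reads on the listed genes numbered between 4847970 (DKO79.9) and 21377352 in the DKO lines, and between 14477802 and 21681586 in the *E2a-/-* lines. An amount of 3 reads, below which a level was not told apart from 0, was 0.618 CPM in DKO79.9 and between 0.138 and 0.207 CPM in the other 14 lines. These limits cover counting error only. Fold changes are differences of mean log2(CPM + 1), DKO minus *E2a-/-*. At low CPM their size, and for some genes their direction, depended on the added 1.

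The targeted genes were examined first. *Lef1*, which encodes a TCF family transcription factor, ranged from 103 to 210.2 CPM with a median of 128 in the DKO lines and from 59.0 to 1558 CPM with a median of 933 in the *E2a-/-* lines. The library labelled SKO132 held the 59.0 CPM, below all 8 DKO lines, although its label is *E2a-/-*, and the other 6 *E2a-/-* lines were at 668 CPM or more. *Tcf3*, the gene from which E2A proteins are made, was at 117 to 218 CPM in DKO and at 151 to 243 CPM in *E2a-/-* lines. Since the table has 1 value per gene, reads of deleted exons cannot be told apart from reads of the exons that remain, and the *Tcf3* values check nothing about the *E2a* deletion.

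The labelled cell type was compared with its defining markers. *Thy1*, a glycoprotein on all mouse T lineage cells, was the most abundant of the 10 mRNAs per length, with a median over lines of 307 CPM per kilobase of exon, and ranged from 562 CPM in DKO713 to 1342 CPM in DKO192.3. The CD3 signaling chains *Cd3d*, *Cd3g* and *Cd3e* had their lowest values in the library labelled SKO132, at 47.0, 142 and 184 CPM, against at least 289.9, 374 and 274 CPM in the other 14 lines. Thus T lineage mRNA was present in all 15 lines, and least of the CD3 genes in the library labelled SKO132. Of 10 B cell genes 3 were listed, and their sum ranged from 0.560 CPM (SKO137.1) to 7.21 CPM (DKO79.9). Of 12 myeloid and dendritic genes 3 were listed, with sums of 8.99 to 18.9 CPM and *Itgam* the most abundant in each line but DKO170.2, and of 8 erythroid genes the erythropoietin receptor *Epor* alone was listed, at 0.115 to 10.7 CPM. The other genes of these 3 lists were not analysed here.

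Between the genotypes, limma called 0 of the 10 markers at an adjusted p under 0.01, beside 6 of 12545 genes (0.0478%). At an unadjusted p under 0.05 the count was 1 of 10, *Cd2*, against 10.2% of all genes. The quasi-likelihood test of edgeR on recovered reads called 0 of 10 (0.00797% of all genes), whereas the likelihood ratio test of edgeR and DESeq2 each called *Cd2* (1.24% and 1.41% of all genes). Leaving out the library labelled SKO132 raised the number of genes passing in limma to 17 and leaving out DKO79.9 to 10, and it was 3 without DKO170.2, DKO713, SKO137.1 or SKO156.6, with 0 of the 10 markers passing each time. The DKO and *E2a-/-* lines overlapped in each of the 10 genes, while no overlap between the genotypes was seen for 0.175% of the listed genes. The median log2 fold change of the 10 was 0.06, with 6 genes higher and 4 lower in DKO, beside a median of -0.02 over all genes. The direction of *Cd4*, *Cd8b1*, *Kit*, *Cd5* and *Thy1* turned in some of the settings.

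Instead, the lines differed within each genotype. The SD of log2(CPM + 1) over the 15 lines had a median of 1.66 for the 10 genes and 0.37 for all listed genes, and 7 of the 10 had an SD above that of 90% of the listed genes. Genotype held a median of 1.63% of the variance of the 10 genes, and 5.59% over all genes. The largest share was 28.7%, for *Cd2*, and the next was 7.09%, for *Cd24a*. *Thy1* varied least, with an SD of 0.30, smaller than in most listed genes.

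**Figure D1:**
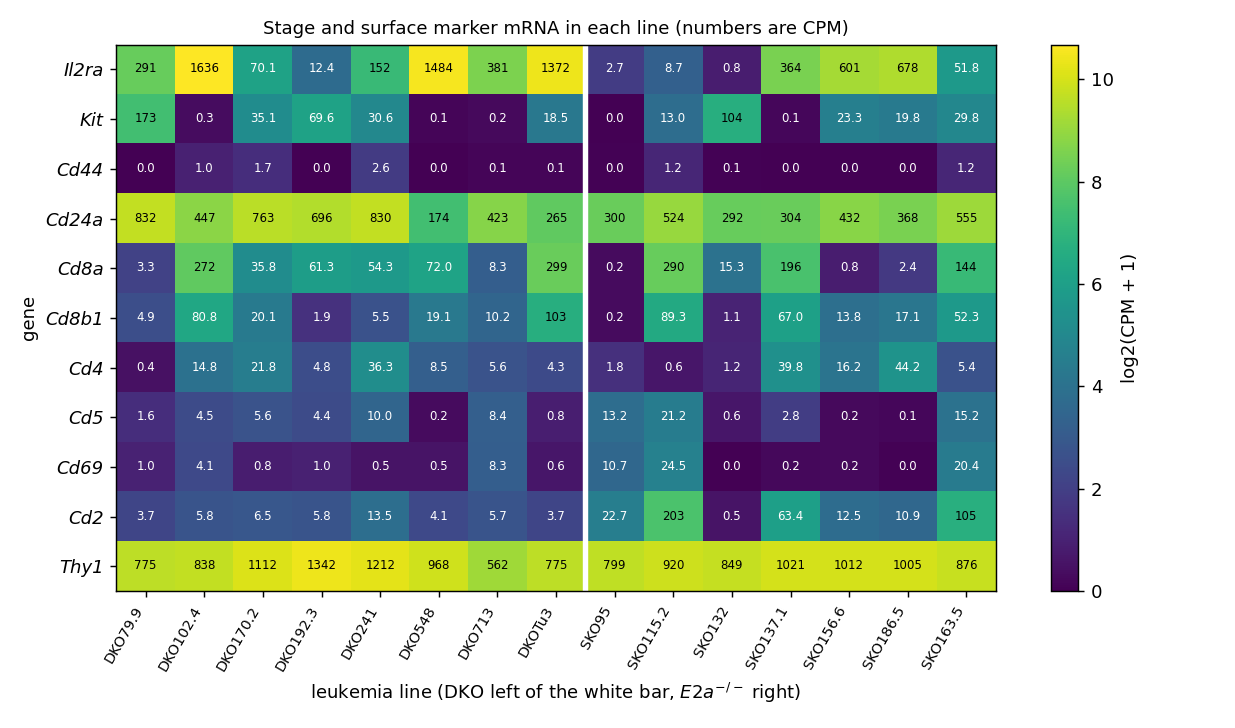
Level of the 10 surface marker mRNAs and of *Il2ra* (rows) in each of the 15 lines (columns, DKO left and *E2a-/-* right of the white bar). The color gives log2(CPM + 1) and the printed number gives CPM. *Kit* lay between 13.0 and 173 CPM in 10 lines and at 0.293 CPM or less in the other 5, and lines of both genotypes were in each set.

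*Kit* and *Cd44* mark the first stages. *Kit*, the receptor for stem cell factor, ranged from 0.115 to 173 CPM with a median of 24.5 in the DKO lines and from 0 to 104 CPM with a median of 19.8 in the *E2a-/-* lines. It was highest in DKO79.9 (173 CPM) and in the library labelled SKO132 (104 CPM), followed by DKO192.3 (69.6 CPM). In the DKO lines DKO102.4, DKO548 and DKO713 it was at 0.293, 0.115 and 0.193 CPM, and in SKO137.1 and SKO95 at 0.124 and 0 CPM. The lines therefore fell into 2 sets, with 5 DKO and 5 *E2a-/-* lines above 10 CPM, and no difference between the genotypes passed the test (log2 fold change 0.08, standard error 1.31, exact permutation p = 0.955).

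*Cd44*, which encodes a receptor for hyaluronan, was barely detected. It ranged from 0 to 2.60 CPM with a median of 0.101 in DKO and from 0 to 1.24 CPM with a median of 0.0461 in *E2a-/-* lines, and 10 of the 15 lines had fewer than 3 reads. The 4 lines above 1 CPM were DKO241 (2.60 CPM), DKO170.2 (1.66 CPM), SKO115.2 (1.24 CPM) and SKO163.5 (1.18 CPM), and DKO102.4 was at 0.978 CPM. The lines with the most *Kit*, DKO79.9 and the library labelled SKO132, had 0 and 0.0552 CPM of *Cd44*, so *Kit* in these lines was not accompanied by the *Cd44* of early progenitors. Of 14 genes of early progenitors 4 were listed. Besides *Kit* and *Cd44* these were *Flt3*, a cytokine receptor, at 0.435 to 2.04 CPM, and *Tal1*, a transcription factor, at 0 to 7.97 CPM with the highest value in SKO95. None of the 4 passed in limma, at an unadjusted p of 0.05, or in the 3 count tests, and their median log2 fold change was 0.00.

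*Il2ra* separates DN2 and DN3 cells from the stages before and after. Its level was highest in DKO102.4 (1636 CPM), DKO548 (1484 CPM) and DKOTu3 (1372 CPM), and lowest in SKO115.2 (8.65 CPM), SKO95 (2.72 CPM) and the library labelled SKO132 (0.827 CPM). Across DKO lines it had a median of 336 CPM (lowest 12.4, in DKO192.3), and across *E2a-/-* lines 51.8 CPM (highest 678, in SKO186.5). The genotypes overlapped, and the difference did not pass (log2 fold change 2.64, standard error 1.44, limma adjusted p = 0.566, exact permutation p = 0.116). In the 3 count tests the log2 fold change was 1.47 to 1.48, and none of them called it.

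The 16 genes of the DN2b to DN3 stages were all listed, and 13 were higher and 3 lower in DKO, with a median log2 fold change of 0.43. None passed in limma or in the 3 count tests, and 2 of 16 had an unadjusted p under 0.05, both higher in DKO, near the 10.2% of all genes. These were *Tcf7*, a transcription factor of T lineage commitment (2862 ± 461 CPM, SD, n = 8 DKO lines, and 1878 ± 487 CPM, SD, n = 7 *E2a-/-* lines, limma adjusted p = 0.241), and *Cd3e* (444 ± 129.8 and 319.9 ± 84.9 CPM, limma adjusted p = 0.463). The summed level of the list was lowest in the library labelled SKO132, at 3334 CPM, and highest in DKO548, at 10239 CPM.

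The coreceptor genes mark the next steps. *Cd8a*, which encodes the α chain of CD8, ranged from 3.30 to 299 CPM with a median of 57.8 in DKO lines, and from 0.230 to 290.1 CPM with a median of 15.3 in *E2a-/-* lines. High values were found in DKOTu3 (299 CPM), SKO115.2 (290.1 CPM), DKO102.4 (272 CPM), SKO137.1 (196 CPM) and SKO163.5 (144 CPM), and values under 5 CPM in DKO79.9 (3.30 CPM), SKO186.5 (2.42 CPM), SKO156.6 (0.828 CPM) and SKO95 (0.230 CPM). Both ends of the order thus held lines of both genotypes. Within DKO the highest line was 90.8-fold above the lowest, and within *E2a-/-* 1259-fold, the latter over a line with 5 reads. The log2 fold change between genotypes was 1.32 (standard error 1.32, exact permutation p = 0.368), with the 8 DKO lines spread by an SD of 2.13 and the 7 *E2a-/-* lines by an SD of 3.38 on the log2 scale. Its size depended on the setting, with 0.113 to 0.136 in the 3 count tests and 0.655 (without SKO95) to 1.97 (without SKO115.2) with each line left out.

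*Cd8b1* encodes the β chain, which pairs with the α chain on thymocytes. It ranged from 1.87 to 103 CPM with a median of 14.7 in DKO and from 0.230 to 89.3 CPM with a median of 17.1 in *E2a-/-* lines (log2 fold change 0.04, standard error 1.02, exact permutation p = 0.967). The 5 lines highest in *Cd8a* were also the 5 highest in *Cd8b1*, and SKO95 was lowest in both. Below these lines the ratio of the chains varied widely. Per kilobase of exon, *Cd8b1* was 40.9-fold above *Cd8a* in SKO156.6 (12 reads of *Cd8a*) and 17.3-fold in SKO186.5, whereas it was 0.0748 of *Cd8a* in DKO192.3, 0.177 in the library labelled SKO132 and 0.249 in DKO241. In DKO548, DKO170.2, SKO95, DKO713 and DKO79.9 this ratio was 0.652, 1.38, 2.45, 3.04 and 3.68, the value of SKO95 from 5 reads of each gene and that of DKO79.9 from 24 and 16 reads, and in the 5 high lines it lay between 0.729 and 0.893.

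*Cd4*, the coreceptor for MHC class II, stayed below 45 CPM in all 15 lines. It ranged from 0.412 to 36.3 CPM with a median of 7.005 in DKO and from 0.570 to 44.2 CPM with a median of 5.38 in *E2a-/-* lines (log2 fold change 0.16, standard error 0.84, exact permutation p = 0.859). The 6 lines above 10 CPM were SKO186.5 (44.2 CPM), SKO137.1 (39.8 CPM), DKO241 (36.3 CPM), DKO170.2 (21.8 CPM), SKO156.6 (16.2 CPM) and DKO102.4 (14.8 CPM), 3 of each genotype. Of these, 4 also had *Cd8a* above 10 CPM (SKO137.1, DKO241, DKO170.2 and DKO102.4), as cells with both coreceptors do, and 2 did not (SKO186.5 and SKO156.6). A further 6 lines had *Cd8a* above 10 CPM with *Cd4* below it, and 3 lines, DKO79.9, DKO713 and SKO95, had both below 10 CPM. Per kilobase, *Cd4* exceeded *Cd8a* in SKO156.6, SKO186.5 and SKO95 (17.6-, 16.5- and 6.86-fold, over 12, 51 and 5 reads of *Cd8a*) and was below it in the other 12 lines.

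*Cd24a* encodes heat stable antigen, a glycoprotein that falls as thymocytes mature. Its mean was 554 ± 260.2 CPM (SD, n = 8) for the DKO and 396 ± 109.6 CPM (SD, n = 7) for the *E2a-/-* genotype, with a range of 174 CPM (DKO548) to 832 CPM (DKO79.9), and the genotypes overlapped (log2 fold change 0.34, standard error 0.32, exact permutation p = 0.334). Even the lowest line was thus far above the level of the coreceptor genes per kilobase in most lines (67.3 CPM per kilobase for *Cd24a* in DKO548, against a median of 14.9 for *Cd8a*). The 4 DKO lines with the most *Cd24a*, DKO79.9, DKO241, DKO170.2 and DKO192.3, were also the 4 DKO lines highest in *Kit*, whereas the library labelled SKO132, highest in *Kit* of the *E2a-/-* lines, had the least *Cd24a* of them (292 CPM). Of the 16 genes of the immature CD8 to CD4 CD8 stages, which include the 3 coreceptor genes and *Cd24a*, 12 were higher and 4 lower in DKO, none passed in limma, at an unadjusted p of 0.05, or in the 3 count tests, and the median log2 fold change was 0.13. The most abundant of them per kilobase were *Dntt*, a DNA polymerase that adds bases at receptor gene joints (107 to 1995 CPM), *Cd24a*, and the recombinase gene *Rag1* (206 to 2228 CPM). *Dntt* was highest in SKO95 and lowest in DKO79.9, and *Rag1* was highest in DKO548 and lowest in SKO115.2.

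*Cd5* and *Cd69* respond to T cell receptor signals. *Cd5*, an inhibitor of these signals, ranged from 0.230 to 10.0 CPM with a median of 4.45 in DKO and from 0.142 to 21.2 CPM with a median of 2.80 in *E2a-/-* lines. *Cd69*, which retains cells in the thymus, ranged from 0.460 to 8.26 CPM with a median of 0.906 in DKO and from 0 to 24.5 CPM with a median of 0.207 in *E2a-/-* lines. The *E2a-/-* lines were spread more widely, with SKO115.2 (21.2 and 24.5 CPM), SKO163.5 (15.2 and 20.4 CPM) and SKO95 (13.2 and 10.7 CPM) above all DKO lines in both genes, and with SKO156.6 (0.207 and 0.207 CPM) and SKO186.5 (0.142 and 0.0474 CPM) at 3 reads or fewer in both. DKO548, the lowest DKO line, had 4 and 8 reads (0.230 and 0.460 CPM), so these lines are not ordered here. Between the genotypes the log2 fold changes were -0.08 (standard error 0.74, exact permutation p = 0.920) for *Cd5* and -0.62 (standard error 0.80, exact permutation p = 0.480) for *Cd69*, and in the 3 count tests they were -0.767 to -0.738 and -1.94 to -1.90. That of *Cd69* was -0.0145 with a pseudocount of 0.1. With each line left out it ran from -0.931 (without SKO132) to -0.152 (without SKO115.2).

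*Cd2* encodes an adhesion receptor of T cells that binds CD48. In the 8 DKO lines it lay between 3.68 and 13.5 CPM with a median of 5.77, and in the *E2a-/-* lines between 0.496 and 203 CPM with a median of 22.7. The order of the *E2a-/-* lines was SKO115.2 (203 CPM), SKO163.5 (105 CPM), SKO137.1 (63.4 CPM), SKO95 (22.7 CPM), SKO156.6 (12.5 CPM), SKO186.5 (10.9 CPM) and the library labelled SKO132 (0.496 CPM). Hence 4 *E2a-/-* lines were above all DKO lines, 2 fell within the DKO range and 1 was below it. The log2 fold change was -1.96 (standard error 0.79, limma adjusted p = 0.413, exact permutation p = 0.0432 without adjustment), while DESeq2 gave -3.29 (adjusted p = 0.000807) and the likelihood ratio test of edgeR -3.29 (adjusted p = 0.000358). Over all the alternatives the adjusted p ranged from 0.000358 to 0.630. Without the library labelled SKO132 the log2 fold change was -2.65 (limma adjusted p = 0.0524). The SD on the log2 scale was 0.53 in DKO and 2.37 in *E2a-/-* lines, and the difference in spread was not tested.

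**Figure D2:**
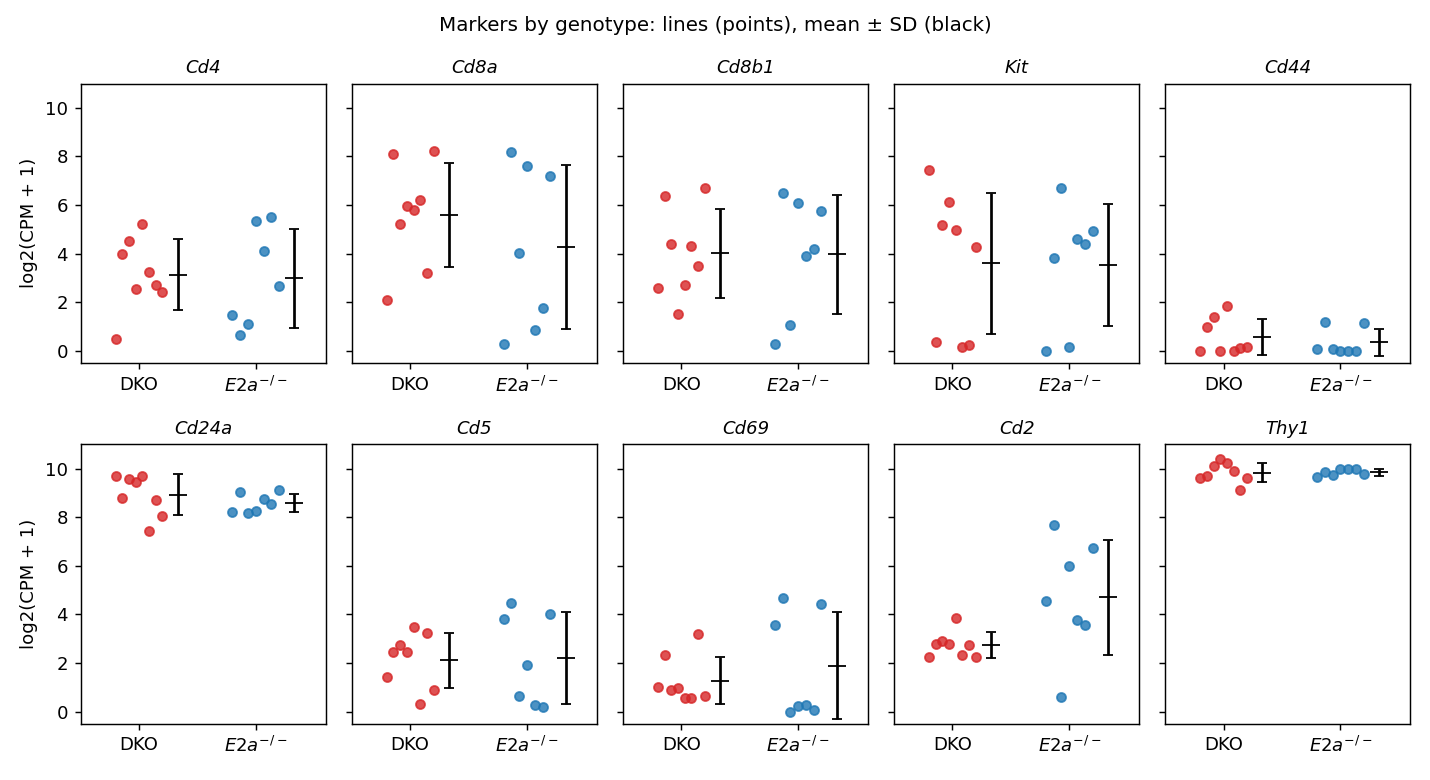
Log2(CPM + 1) of the 10 genes in the DKO (red, n = 8) and *E2a-/-* lines (blue, n = 7). Each point is a line, the black dash and bar give the mean ± SD, and all panels share the vertical axis. The genotypes overlapped in each gene, and *Cd2* was between 3.68 and 13.5 CPM in DKO lines and between 0.496 and 203 CPM in *E2a-/-* lines.

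The genes of positive selection and maturation were set beside these markers. Of 12 genes of positive selection and receptor response 10 were listed, 5 higher and 5 lower in DKO, with a median log2 fold change of -0.02. None passed in limma, while *Itm2a*, a membrane protein induced during selection, had an unadjusted p under 0.05, 1 of 10 beside 10.2% of all genes (160.9 ± 54.4 CPM, SD, n = 8 DKO lines, and 62.2 ± 20.05 CPM, SD, n = 7 *E2a-/-* lines, limma adjusted p = 0.0564) and was called by DESeq2 and by the likelihood ratio test of edgeR, but not by the quasi-likelihood test. Of 13 genes of mature cells 12 were listed, 2 higher and 10 lower in DKO (median log2 fold change -0.67), and of 10 γδ T cell genes 8 were listed, all lower in DKO (median -0.82), with none of either list past limma, an unadjusted p of 0.05 or the 3 count tests. The summed levels of both lists were highest in SKO115.2 (2175 and 615 CPM) and SKO163.5 (1487 and 443 CPM), which were also highest in *Cd5*, *Cd69* and *Cd2*. In these 2 lines *Sox13*, a transcription factor of γδ T cells, was at 176 and 162.9 CPM, and it was at 103 CPM in SKO95 and at 25.1 CPM or less in the other 12 lines. Other lines had sums of 87.3 to 777 CPM for the mature list and of 7.29 to 212 CPM for the γδ list. *Cd163l1* of the γδ list did not single out SKO115.2 and SKO163.5. It was at 111 CPM in DKO79.9, 103 CPM in SKO163.5 and 85.3 CPM in SKO115.2, and at 0.138 to 76.6 CPM in the other 12 lines. *Tcrg-C4*, a constant region of the γ chain, was at 155 and 44.4 CPM in SKO115.2 and SKO163.5, at 40.8 CPM in DKO79.9 and at 4.14 CPM or less in the other 12 lines. Whether reads of *Tcrg-C4* were shared with other *Tcrg-C* genes was not tested, and its values are uncertain.

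Of 14 innate lymphoid and NK cell genes 7 were listed, 2 higher and 5 lower in DKO (median log2 fold change -0.68). None passed in limma or the 3 count tests, and 3 of 7 had an unadjusted p under 0.05 (10.2% of all genes), *Tbx21* (higher in DKO), *Id2* and *Zbtb16* (both lower). The sum was highest in the library labelled SKO132, at 334 CPM, of which *Rora*, a nuclear receptor, made 304 CPM, and otherwise ranged from 23.9 to 203 CPM. Of 10 genes of thymic stroma and fibroblasts 5 were listed, 2 higher and 3 lower in DKO (median -0.04), with none past any of these tests. Their sum ranged from 168 CPM in DKOTu3 to 1143 CPM in DKO192.3, where the collagen gene *Col1a2* made 947 CPM. The epithelial gene *Epcam* was at 0 in 6 lines and at 8.24 CPM at most. The other 5 genes of that list were not analysed here, and the part of other cells in the marker levels was not tested. The B cell, myeloid and erythroid genes named above gave median log2 fold changes of -0.02, 0.23 and -0.30, with none past limma, an unadjusted p of 0.05 or the count tests.

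Taken line by line, the DKO lines showed several combinations. DKO548 and DKO102.4 had the most *Il2ra* of all lines (1484 and 1636 CPM) with *Kit* at 0.293 CPM or less, as in DN3 cells, together with *Cd8a* at 72.0 and 272 CPM, *Cd8b1* at 19.1 and 80.8 CPM and *Cd4* at 8.45 and 14.8 CPM, which DN3 cells lack. *Cd44* was at 0 CPM in DKO548 and at 0.978 CPM in DKO102.4. DKOTu3 was similar to both in *Il2ra* (1372 CPM) and to DKO102.4 in *Cd8a* (299 CPM), but had 18.5 CPM of *Kit*. DKO713 was nearer to the DN3 combination, with 381 CPM of *Il2ra*, 0.193 CPM of *Kit* and less *Cd8a* (8.26 CPM) and *Cd8b1* (10.2 CPM) than these 3 lines, with *Cd4* at 5.56 CPM, and it had the most *Cd69* of the DKO lines. DKO79.9 had both *Kit* (173 CPM) and *Il2ra* (291 CPM) and hardly any coreceptor mRNA, as in DN2 cells, but no read of *Cd44*. DKO241 and DKO170.2 had *Kit*, *Il2ra*, *Cd4* and *Cd8a* together, early and late markers that no stage described above bears together, and DKO192.3 had *Kit* (69.6 CPM) and *Cd8a* (61.3 CPM) with little *Il2ra*, *Cd8b1* and *Cd4*.

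The *E2a-/-* lines fell into other combinations. SKO137.1 was nearest to cells with both coreceptors, with *Cd8a* at 196 CPM, *Cd8b1* at 67.0 CPM and *Cd4* at 39.8 CPM, but kept 364 CPM of *Il2ra*. SKO115.2 and SKO163.5 had *Cd8a* and *Cd8b1* with little *Cd4* and high *Cd5*, *Cd69* and *Cd2*, as in cells with CD8 alone after receptor signaling, yet retained *Cd24a* (524 and 555 CPM) and some *Kit* (13.0 and 29.8 CPM). They also had the highest sums of the γδ T cell list (615 and 443 CPM, at most 212 CPM in other lines), and the part of γδ T cells in this combination was not tested. The sums of the list of positive selection and receptor response were highest in them too (615 and 499 CPM). However, *Itm2a* of that list was lowest in these lines (33.3 and 45.5 CPM). SKO156.6 and SKO186.5 had *Il2ra* (601 and 678 CPM), *Kit* (23.3 and 19.8 CPM), *Cd4* and *Cd8b1*, with *Cd8a* at 2.42 CPM or less. SKO95 had *Kit*, *Il2ra* and both coreceptors under 3 CPM, with *Cd5*, *Cd69* and *Cd2* present. The library labelled SKO132 had *Kit* (104 CPM) with *Cd8a* at 15.3 CPM and no other of these markers besides *Cd24a* and *Thy1* above 2 CPM.

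As a description of likeness, the root mean square difference of log2(CPM + 1) over the 10 genes was computed for each pair of lines. Its median was 2.03 among DKO lines (28 pairs), 2.92 among *E2a-/-* lines (21 pairs) and 2.36 between a DKO and an *E2a-/-* line (56 pairs). Pairs within *E2a-/-* thus differed more than pairs across the genotypes. The closest pairs were SKO156.6 with SKO186.5 (0.55), DKO170.2 with DKO241 (0.74) and SKO115.2 with SKO163.5 (0.90). For 9 of 15 lines the nearest line was of the same genotype, and DKO79.9 was nearest to the library labelled SKO132 (1.16), DKO102.4 to SKO137.1 (1.37) and DKO713 to SKO95 (1.57). SKO156.6 and SKO186.5 also had the highest Spearman rho of all pairs over the 12545 listed genes (0.987, next highest 0.969). They were counted as 2 lines because they are labelled so, and whether they have a common origin was not tested.

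Relations between markers were examined for 6 pairs over the lines, with p-values adjusted over the 6. *Cd8a* and *Cd8b1*, which the table lists beside each other on chromosome 6 (71323421 to 71329165 and 71272830 to 71287471), had a Pearson r of 0.698 (permutation p = 0.00440, adjusted 0.0132) and a Spearman rho of 0.782 (permutation p = 0.000950, adjusted 0.00285). Without SKO95 and SKO156.6, the lines farthest from the median of *Cd8a*, r was 0.671. Within DKO r was 0.666 (exact permutation p = 0.0702) and within *E2a-/-* 0.749 (exact permutation p = 0.0609). Thus the chains moved together over the lines, in the same direction in each genotype, although SKO156.6 and SKO186.5 kept *Cd8b1* where *Cd8a* was near 0.

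*Cd5* and *Cd69*, on chromosomes 19 and 6, had an r of 0.818 (permutation p = 0.000210, adjusted 0.00126) and a rho of 0.821 (permutation p = 0.000290, adjusted 0.00174), and r was 0.797 without SKO186.5 and SKO156.6. Within *E2a-/-* r was 0.954 (exact permutation p = 0.00258), and within DKO 0.454 (exact permutation p = 0.258). The difference between these was not tested. The *E2a-/-* lines formed separate sets in *Cd69*. SKO115.2, SKO163.5 and SKO95 were at 24.5, 20.4 and 10.7 CPM, and SKO132, SKO137.1, SKO156.6 and SKO186.5 had 3 reads or fewer. The r within *E2a-/-* is thus mainly a contrast of these sets, and a graded relation within either set was not tested. *Cd69* was at 1.03 CPM or less in 10 lines and at 4.06 CPM or more in the other 5. Within those 10 lines, which were chosen by their *Cd69* and so span a narrower range, r was 0.523 (permutation p = 0.121) and rho 0.564 (permutation p = 0.0968).

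Among the other pairs no relation passed. *Cd4* and *Cd8a* had an r of 0.080 (permutation p = 0.773, adjusted 0.926) and a rho of -0.061 (permutation p = 0.832, adjusted 0.832), with an r of 0.147 without SKO186.5 and SKO137.1. *Cd24a* and *Cd8a* had an r of -0.026 (permutation p = 0.926, adjusted 0.926) and a rho of -0.071 (permutation p = 0.802, adjusted 0.832), with an r of 0.190 without DKO548 and DKO79.9. Their r was -0.451 within DKO (exact permutation p = 0.257) and 0.412 within *E2a-/-* (exact permutation p = 0.333). For *Cd4* and *Cd8a*, r was 0.464 within DKO (exact permutation p = 0.250) and -0.138 within *E2a-/-* (exact permutation p = 0.756). The differences between the genotypes in r were not tested. Since *Kit* split the lines into separate sets, its relations were computed only in the 10 lines above 10 CPM. There r was -0.363 with *Cd8a* (permutation p = 0.304, adjusted 0.483; rho -0.370, permutation p = 0.298, adjusted 0.595), and -0.061 without DKO79.9 and the library labelled SKO132. The relation of *Kit* with *Cd44* could not be read, since 6 of these 10 lines had fewer than 3 reads of *Cd44*.

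**Figure D3:**
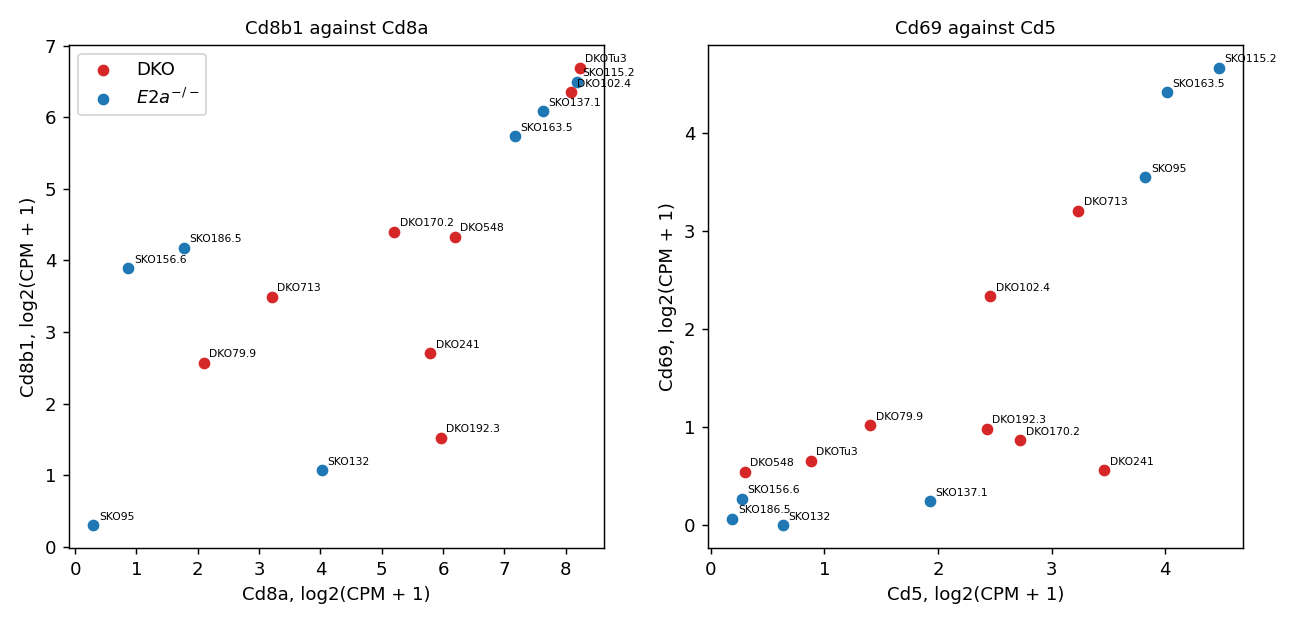
*Cd8b1* against *Cd8a* (left) and *Cd69* against *Cd5* (right), both axes in log2(CPM + 1), with each of the 15 lines as a point (DKO red, *E2a-/-* blue). Pearson r over the lines was 0.698 and 0.818. SKO156.6 and SKO186.5 lie above the other lines at low *Cd8a*, and DKO241 lies low in *Cd69* for its *Cd5*.

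Because *Cd4*, *Cd8a*, *Cd8b1* and *Cd69* are listed on chromosome 6, the median level of its 454 expressed genes was computed in each line relative to the autosomes, on the log2 scale. It was raised in SKO163.5 (0.31), DKO548 (0.23) and DKOTu3 (0.16) and between -0.10 and 0.00 in the other 12 lines. Without these 3 lines r of *Cd8a* and *Cd8b1* was 0.626 (permutation p = 0.0327). Chromosome 5, with *Kit*, was raised in DKO241 (0.41), which had 30.6 CPM of *Kit*, and stood between -0.06 and 0.02 elsewhere. On the chromosomes of the other members (2, 3, 9, 10 and 19) no line was more than 0.10 from the autosomes. The part of these shifts in the marker levels was not tested.

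Genes with the most similar pattern over the 15 lines were sought among the 9706 or 9707 other genes whose mean level was 5 CPM or more. For *Cd8a* these were *Zfp354c* (r = 0.784), *Tubb3* (0.772), *Plpp6* (0.739), *Igsf3* (0.735) and *Adamts20* (0.731), and for *Kit* they were *Mdfi* (0.863), *Nme4* (0.862), *Zfp385a* (0.861), *Sema4a* (0.829) and *Aif1l* (0.827). *Zfp385a* had the highest rho with *Kit* among these, 0.904, and ranged from 0.748 to 76.7 CPM. For *Cd4* the nearest were *4833439L19Rik* (0.839), *Xrcc6* (0.820), *Tasp1* (0.798), *Wsb2* (0.772) and *L3mbtl2* (0.767), of which *Xrcc6*, a DNA end-binding protein of the joining step, ranged from 253 to 1198 CPM. For the sparse *Cd44* they were *Dnajc2* (0.873), *Suds3* (0.864), *Ovgp1* (0.828), *Prkrip1* (0.799) and *Gin1* (0.799). Of the last 5, *Dnajc2*, *Suds3* and *Prkrip1* are on chromosome 5, which was raised in DKO241, the line with the most *Cd44*. *Cd44* and *Cd69*, with means below 5 CPM, were not among the genes searched, and none of the other markers was among the 5 nearest of any of these 4. These r were chosen as the highest of many and are given without a test.

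The promoters of *Cd8a* and *Cd5* are shown because each gene was correlated with another marker over the 15 lines. In addition, E2A proteins, which all 15 lines lack by genotype, bind E-boxes. RefSeq promoters (GRCm38.p6) were held for 4 of the 10 genes, *Cd8a*, *Cd5*, *Kit* and *Cd44*. The 250 bases before the start of each gene were searched on both strands for the E-box CANNTG and for the TCF/LEF motifs CTTTGAT and CTTTGTT, which do not overlap with it here. An E-box was found in 66.2% of 32851 promoters of that length, CTTTGAT in 3.21% and CTTTGTT in 5.03%. *Cd8a* and *Cd5* each held 2 E-boxes and neither TCF/LEF motif, and *Kit* and *Cd44* held none of the 3. E-boxes are in capitals in the sequences of chr6:71373177-71373426 (plus strand) for *Cd8a* and chr19:10738975-10739224 (minus strand) for *Cd5*.
Cd8a: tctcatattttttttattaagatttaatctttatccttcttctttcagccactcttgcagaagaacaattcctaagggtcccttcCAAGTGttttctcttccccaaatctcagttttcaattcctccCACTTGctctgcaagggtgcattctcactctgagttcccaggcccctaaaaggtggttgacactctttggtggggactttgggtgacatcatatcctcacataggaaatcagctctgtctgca
Cd5: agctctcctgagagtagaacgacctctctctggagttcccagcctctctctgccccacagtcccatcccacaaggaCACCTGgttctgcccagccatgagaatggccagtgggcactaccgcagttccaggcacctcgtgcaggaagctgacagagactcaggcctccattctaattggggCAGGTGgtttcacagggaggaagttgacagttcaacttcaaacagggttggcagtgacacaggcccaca
A match is a description of these letters and was not tested as a site of binding.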

How the data were processed

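RNA of 15 T cell leukemia lines (8 DKO, 7 *E2a-/-*) had been sequenced, 1 library per line. Per the submitters' processing notes and the methods, the authors trimmed reads with Trimmomatic (version 0.33), aligned them to mm10 with TopHat2 (version 2.1.0), counted them with HTSeq (version 0.6.1) and deposited CPM scaled with edgeR. Genes with few reads are not listed. Values divided by the lowest value above 0 of their line were whole for 100% of genes within 0.01, and these reads served the count tests. Of 12545 identifiers, 12172 matched a symbol.

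The genotypes were compared on log2(CPM + 1) with limma (R 4.3.3, limma 3.58.1) and a variance trend, two-sided, with Benjamini-Hochberg adjustment over all genes at 0.01. Single genes were tested by two-sided exact permutation over all 6435 splits into 8 and 7 lines, whose smallest p is 0.000155. Correlations used 100000 resamples, or all pairings within a genotype, in Python (version 3.11.15). edgeR (version 4.0.16; quasi-likelihood, and likelihood ratio with tagwise dispersions) and DESeq2 (version 1.42.0) were run on the recovered reads. Other alternatives were pseudocounts of 0.1 and 2, a mean of at least 1 CPM, no trend, TMM and median-of-ratios scaling, an adjusted p under 0.05, each line left out, and SKO156.6 and SKO186.5 averaged. The tests were also run on simulated data, and the outcome is not reported here. The width that the table lists is not an exon length, so levels per kilobase use the union of GENCODE M21 exons. The table's coordinates are not those of GRCm38 and are given as listed.

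Named genes are the 10 markers, *Lef1*, *Tcf3*, *Il2ra*, up to 3 genes per list with the highest mean CPM per kilobase and any past the limma threshold, and the 5 genes nearest to *Cd4*, *Cd8a*, *Kit* and *Cd44* by r. Others, such as *Cd3e*, *Epcam* and *Zbtb16*, were picked after their values were seen, as was the distance between lines. The 10 markers and the gene lists were chosen with earlier results of these data known. Line numbers are not shared between genotypes, so no pairing was used. Flow cytometry and microarrays were not analysed here, and results for some genes of the lists are not reported here.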

Additional observations from a re-analysis of the deposited data

Results flagged for a closer look

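In 20 groups of lines, 1 for each gene and genotype, the highest and the lowest line were compared with the others on the log2(CPM + 1) scale. *Cd2* in DKO241, at 13.5 CPM, lay far above the other DKO lines, which were between 3.68 and 6.51 CPM, with a gap to the nearest line of 0.581 of the range. Chance alone gives about 1 such line in 20 groups. DKO241 was also the DKO line highest in *Cd4*, *Cd5* and *Cd44*.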

How the results depend on the processing

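The number of genes past the limma threshold was 6, and it was 1 with the quasi-likelihood test of edgeR, 155 with the likelihood ratio test, 177 with DESeq2, 19 at an adjusted p under 0.05, and 30 without SKO132 and DKO79.9, a setting chosen after seeing the data. It was between 3 and 17 with each line left out in turn. Of the 10 markers, 1 passed with the likelihood ratio test and 1 with DESeq2, *Cd2* in both, and 0 with each line left out. The direction of markers with fold changes near 0 depended on the setting. *Cd4* turned to -0.34 (quasi-likelihood), -0.37 (likelihood ratio) and -0.35 (DESeq2) on the log2 scale. *Cd8b1* turned to -0.15, -0.17 and -0.17 in these tests, to -0.049 with a pseudocount of 2 and to -0.23 without SKO132 and DKO79.9. *Cd5* turned to 0.23 with a pseudocount of 0.1. *Thy1* turned to 0.060, 0.034 and 0.051 in the count tests, 0.018 with TMM scaling, 0.0093 with median-of-ratios scaling, 0.012 with SKO156.6 and SKO186.5 averaged and 0.0048 without SKO132 and DKO79.9. With each line left out, the log2 fold change ran from -0.23 to 0.58 for *Cd4*, -0.57 to 0.47 for *Cd8b1*, -0.50 to 0.62 for *Kit*, -0.41 to 0.30 for *Cd5* and -0.088 to 0.091 for *Thy1*. *Cd8a*, *Cd44*, *Cd24a*, *Cd69* and *Cd2* kept their direction in all settings in which they were tested, but not their size. *Cd8a*, at 1.32, ran from 0.113 (DESeq2; 0.121 and 0.136 in the other count tests) to 1.97 (without SKO115.2), and was 0.655 without SKO95. *Cd44*, at 0.217, ran from 0.034 (without DKO241) to 0.945 (quasi-likelihood). *Cd24a*, at 0.344, ran from 0.168 (without SKO132 and DKO79.9) to 0.556 (without DKO548). *Cd69*, at -0.616, ran from -0.0145 (pseudocount of 0.1) to -1.94 (likelihood ratio), and *Cd2*, at -1.96, from -1.47 (without SKO115.2) to -3.29 (DESeq2). The correlation of *Cd24a* with *Cd8a* turned to 0.0057 with a pseudocount of 0.1 and ran from -0.152 to 0.096 with each line left out, and that of *Cd4* with *Cd8a* from -0.051 to 0.241. The correlations of *Cd8a* with *Cd8b1* (0.606 to 0.778) and of *Cd5* with *Cd69* (0.769 to 0.901) kept a permutation p under 0.05 in these 20 and 19 settings. Within the 10 lines with *Cd69* under 2 CPM, a set chosen by 1 of the correlated genes, the latter was 0.523 (permutation p = 0.121). The cause of these changes was not tested. Lines with fewer than 3 reads of a gene, as in 10 lines for *Cd44*, cannot be ordered at this depth.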

Other observations

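Within the innate lymphoid list, *Tbx21*, which encodes the transcription factor T-bet, lay between 7.71 and 11.6 CPM in all 8 DKO lines and between 0 and 7.94 CPM in the *E2a-/-* lines, the highest of these being the library labelled SKO132 (log2 fold change 2.30, limma adjusted p = 0.0208). *Zbtb16*, which encodes PLZF, ranged from 0 to 15.5 CPM (median 0.0771) in DKO and from 0 to 70.7 CPM (median 20.6) in *E2a-/-* lines, and the genotypes overlapped (log2 fold change -2.76, limma adjusted p = 0.268). *Il7r*, the receptor for IL-7, was above 100 CPM in DKO102.4, DKO548, DKO713, DKOTu3, SKO137.1, SKO156.6 and SKO186.5 and at 23.8 CPM or less in the other 8 lines. These 7 lines were also the 7 highest in *Il2ra*. These genes were picked after their values were seen.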
